A study of Mus musculus with 6 samples.

Results

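The 58 genes described here encode core proteins of the spliceosome, and their mRNAs were followed through an immunoprecipitation of CPEB1 from mouse muscle stem cells. They were chosen by gene symbol among 55376 genes: names beginning with Snrp, Sf3a, Sf3b, Prpf, Lsm or U2af with the number that follows, plus Sf1, Sart1, Sart3, Cdc5l, Crnkl1, Snw1 and Bcas2. Of 60 names that matched, 2 pseudogenes marked -ps were left out. The rule uses symbols alone, and it was set with earlier results of these data known. The annotation lists 57 of the 58 as protein coding, and the 58th, Snrpert, is a processed pseudogene that the symbol pattern picked up. Genes named Snrnp do not match the pattern and stand in a separate list.

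The spliceosome removes introns from pre-mRNA. Its building blocks are small nuclear ribonucleoproteins (snRNPs), each an snRNA with a ring of Sm or LSm proteins and proteins of its own. U1 recognises the 5′ splice site, U2 the branch point, and the U4/U6.U5 tri-snRNP joins before the Prp19 complex helps to form the active site. CPEB1 is an RNA-binding protein that recognises the cytoplasmic polyadenylation element (CPE), a short U-rich motif in 3′ UTRs, and controls poly(A) tail length and translation of the mRNAs that carry it.

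The cells were satellite cells (SCs), the stem cells of skeletal muscle, from C57BL/6 mice 3 months old, sorted as CD31-, CD45-, Sca1- and Vcam1+ and used freshly isolated (fiSCs). The number of mice behind a library is not given in the sources used here. No group carried a genetic change or a drug. The 6 libraries, 2 in each of 3 groups, were input RNA with no antibody, RNA precipitated with anti-IgG, and RNA precipitated with anti-CPEB1 (CPEB1 IP). The libraries were made by SMART-seq2, which copies polyadenylated RNA. Anti-IgG gives what binds to antibody and beads without CPEB1, and input gives what the lysate held.

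Counts on genes were 3270067 and 3314547 in input, 1284716 and 1359052 in IgG, and 2564323 and 4941653 in CPEB1 IP, with a median of 74.5 to 365.5 counts per member. The IgG libraries stood apart: 39.5 and 39.1% of the library total behind the deposited FPKM lay on genes, against 69.5 to 79.8% in the other 4. Over 14276 genes, log2 CPM, the counts scaled to library depth, correlated between the 2 libraries of a group with r of 0.975 in input, 0.941 in IgG and 0.977 in CPEB1 IP. The 9 SC markers, Pax7 and Myod1 among them, summed to 2636 and 3160 FPKM in input. The 4 endothelial markers summed to 14.7 and 16.9, the 4 haematopoietic to 5.19 and 5.99, the 3 fibro-adipogenic to 14.5 and 14.8, and the 4 muscle fibre markers to 25.8 and 24.1. No marker was at 0 in both input libraries. In CPEB1 IP the haematopoietic sum was 22.7 and 25.1, the fibro-adipogenic sum 48.1 and 48.4, and the fibre sum 43.9 and 56.9, and the part of such RNA in the results was not tested.

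A CPE was taken as TTTTAT or TTTTAAT in an annotated 3′ UTR on the transcribed strand. The 10 windows below are shown because they are candidate motifs of members that passed the test between CPEB1 IP and IgG. The first 9 belong to mRNAs higher in CPEB1 IP and the last to Prpf39, which was lower. The window of Snrpd1, also higher, is not shown here. Lsm14b, which was lower on few counts, also had a CPE, and its window is not shown. Each is the CPE nearest to the end of the longest annotated 3′ UTR (GENCODE M21, mm10), written 5′ to 3′ as DNA, with the CPE in capitals.
Prpf6, chr2:181655638-181655660, plus strand: tcattaaaggtTTTTATagagtt
Prpf8, chr11:75509423-75509449, plus strand: aatgtaataaaTTTTATaaatagtgct
Snw1, chr12:87450182-87450209, minus strand: cggagtagtttTTTTATatggaatgggg
Sf3b4, chr3:96177311-96177338, plus strand: attttcttcatTTTTATtttaaaatgtt
Sf3b1, chr1:54985223-54985251, minus strand: ttatattgtatTTTTAATatttgttgtat
Sart1, chr19:5377709-5377736, minus strand: gtttatgggtgTTTTATctgcctgtgtc
Snrpd2, chr7:19152715-19152742, plus strand: tgctttttggtTTTTATgttttccagtg
Sf3b3, chr8:110810447-110810474, minus strand: ttgttgttttgTTTTATagtcttttcct
Sf1, chr19:6376943-6376970, plus strand: ttccctttatgTTTTATtttgaccccag
Prpf39, chr12:65062638-65062665, plus strand: ccacagctcatTTTTATgtttgctgatg

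The setting of these motifs varied widely. The Prpf6 3′ UTR was 86 bases long and its single CPE ended 6 bases from the transcript end, and the Prpf8 3′ UTR was 160 bases long with a CPE 10 bases from the end. The Sf3b1 3′ UTR was 2165 bases long and held 9 CPEs, the last of them 65 bases from the end. Prpf39, an mRNA that was lower in CPEB1 IP, held 8 CPEs in 1906 bases. Among the 57 members with an annotated 3′ UTR, 38 (66.7%) had a CPE. The share was 66.9% of the 10881 genes with a 3′ UTR that were tested between CPEB1 IP and IgG, and 57.9% of all 20913 genes with one. The members' longest 3′ UTRs had a median of 622 bases against 1285 over the tested genes. A motif match describes the sequence and does not show a bound site.

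The members were well expressed in fiSCs. Their median input level was 12.1 FPKM (fragments scaled to library total and transcript length) against 4.87 over the 12171 genes tested between CPEB1 IP and input, and 51 of 58 lay above that median. Snrpb, which encodes SmB, was the highest at 190 and 201 FPKM in the 2 input libraries. Lsm4 followed at 85.0 and 78.2, Sf3b1 at 65.3 and 75.9, and Sf1 at 59.8 and 62.7, and each of these 4 was above the next in both libraries. U2af1 at 47.5 and 56.4 and Sf3b4 at 52.6 and 49.0 could not be ordered. Over the whole list, 10 of 57 neighbouring pairs were apart in both libraries. In bulk RNA, fewer cells with an mRNA and less of it per cell cannot be told apart.

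The groups differed in input level. The median was 40.0 FPKM for branch point and 3′ splice site factors, 25.7 for Sm proteins, 21.6 for U2 proteins, 11.6 for the Prp19 group, 10.9 for the LSm rings, 9.84 for U1 proteins and partners, 9.26 for the tri-snRNP group, and 4.82 for U7 and other LSm domain proteins. The lowest members were Lsm11, a U7 snRNP protein, at 0.269 and 0.373 FPKM, and U2af1l4, a U2AF35-related factor, at 0.787 and 0.145.

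**Figure D1:**
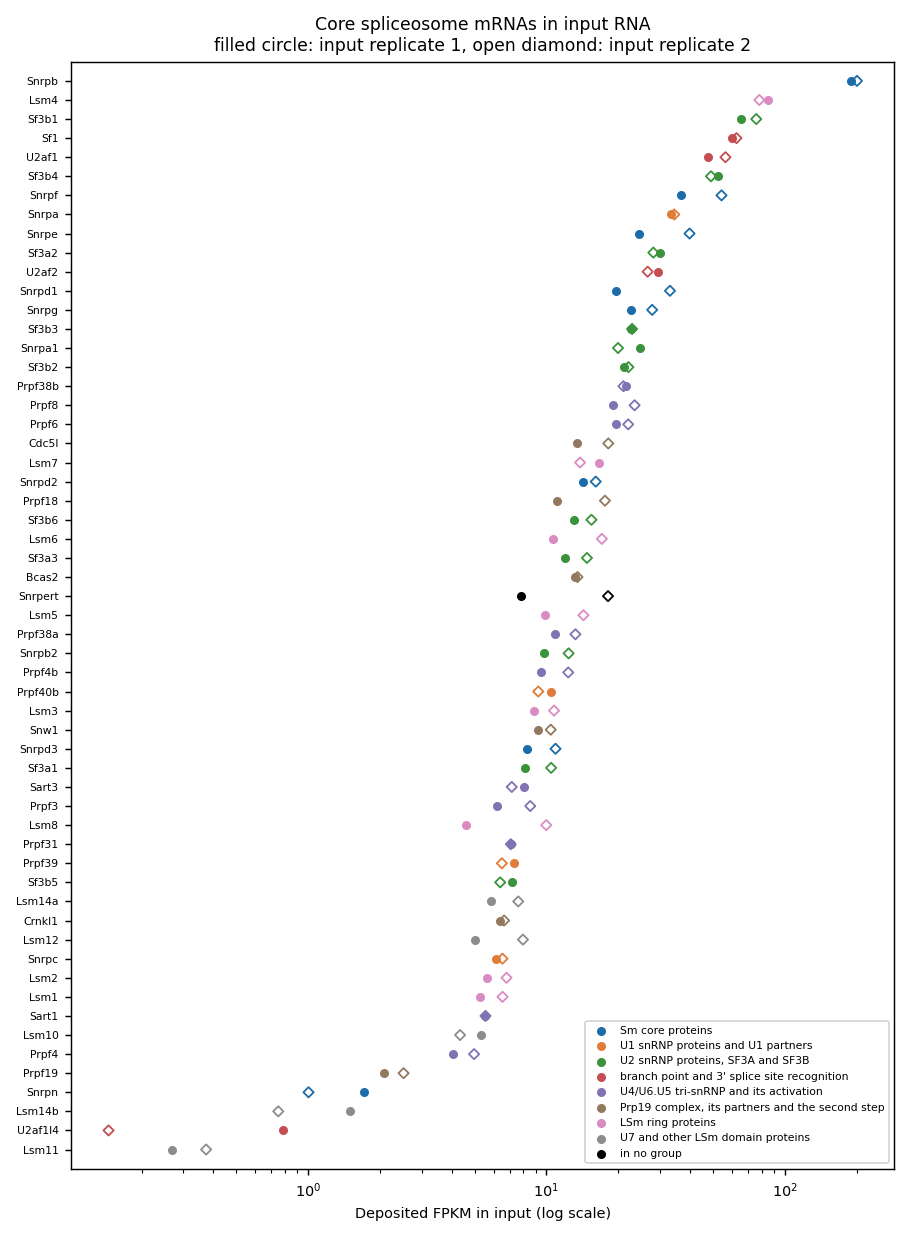
Deposited FPKM of 57 members in input (x axis, log scale), ordered by their mean, with a filled circle for input replicate 1 and an open diamond for replicate 2, coloured by group. Snrpb stands above all other members at 190 and 201 FPKM, and most neighbours overlap.

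Between CPEB1 IP and IgG, 15 of the 55 members tested were higher in CPEB1 IP, 2 were lower and 38 did not pass the test (edgeR's quasi-likelihood test with trimmed mean of M-values (TMM) scaling, adjusted p under 0.05 over all genes). Over all 12124 genes tested, 14.7% were higher and 18.7% lower. The members' share was 27.3% higher and 3.64% lower. Their median log2 fold change was 0.25, with 40 values above 0 and 15 below, against a median of -0.01 over all genes tested. The values ran from -1.41 for Lsm14b, on few counts, to 0.80 for Prpf6, a 1.74-fold difference. Snrpn, U2af1l4 and Lsm10 had too few counts to be tested.

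The count of 15 depended on the analysis. With DESeq2 it was 6 (10.9% of 55), against 7.05% of all genes tested. The median shift of the members against all genes tested stayed at 0.27 when the library total behind the FPKM set the scale, but all genes then moved up together by 0.80, 58.97% of them were called higher, and 48 members were higher and 0 lower. Without a filter on low counts 34 of 58 were higher and 0 lower, against 8.36% of 42045 genes higher and a median over all genes of -0.90. The 6 calls that held under each of the 11 alternatives were Prpf6, Snw1, Prpf8, Sf3b4, Sf3b1 and Snrpb.

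**Figure D2:**
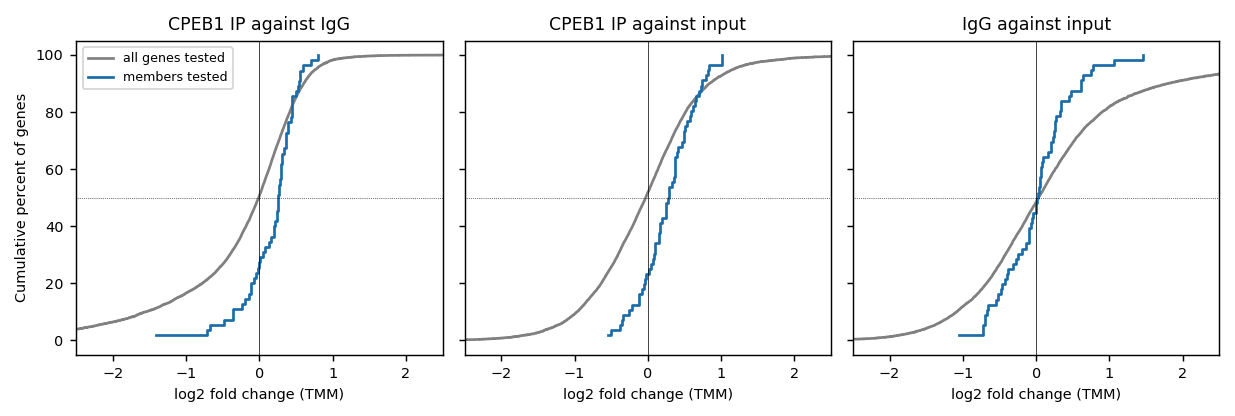
Cumulative percent of genes (y axis) by log2 fold change with TMM scaling (x axis, with the far tails not drawn) for all genes tested (grey) and the members tested (blue) in each of the 3 comparisons. The members' curve lies to the right of all genes at the middle in CPEB1 IP against IgG (medians 0.25 and -0.01) and against input (0.28 and -0.03), and crosses it there in IgG against input (0.02 and 0.03).

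Against input, 15 of 56 members tested were higher in CPEB1 IP and 1 was lower, where 16.3% of all 12171 genes tested were higher and 16.7% lower. The median was 0.28 against -0.03 over all genes. These calls rested on having both CPEB1 IP libraries: without CPEB1 IP replicate 1, only Sart1 was higher, and without replicate 2 edgeR called 0 members, with 295 and 18 genes higher over the whole table. At an unadjusted p under 0.05, 11 and 10 members were higher in those fits, against 14.0 and 12.1% of all genes. DESeq2 on all 4 libraries called 10 members (17.9%) and 12.01% of all genes. The medians were 0.28 and 0.25 in those fits. Without input replicate 2 the members' median was 0.33, against -0.01 over all genes. In that fit Snrpd2, Snrpg, Snrpa1, Crnkl1, Lsm2 and Lsm12 were no longer called. Without input replicate 1 the calls of Snrpg, Crnkl1, Prpf3, Lsm2 and Lsm12 were lost. With the FPKM library total as scale the split was 6 higher and 1 lower, against 10.1% of all genes higher and 22.5% lower.

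Between IgG and input, 4 of 56 members were higher in IgG and 8 lower, where 21.4% of all 12980 genes tested were higher and 19.4% lower, and the median was 0.02 against 0.03 over all genes. Without IgG replicate 1 or replicate 2, edgeR called 0 members in either direction, and 13 and 9 genes in all were higher. At an unadjusted p under 0.05 these fits had 3 and 2 members higher, against 16.6 and 16.2% of all genes, and 4 and 5 lower, against 15.99 and 15.6%. DESeq2 on all 4 libraries called 3 higher and 4 lower, against 13.1 and 12.3% of all genes. Without input replicate 1 the calls of Prpf31, Prpf40b, Lsm4 and Lsm11 were lost, and without input replicate 2 that of Sf3a1. The same calls were also lost with DESeq2. With the FPKM library total as scale, 0 were higher and 44 lower, against 8.54% of all genes higher and 55.3% lower, and the members' median was 0.01 below that of all genes. The 3 comparisons share libraries, so their values are given side by side for each group and are not independent of each other.

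**Figure D3:**
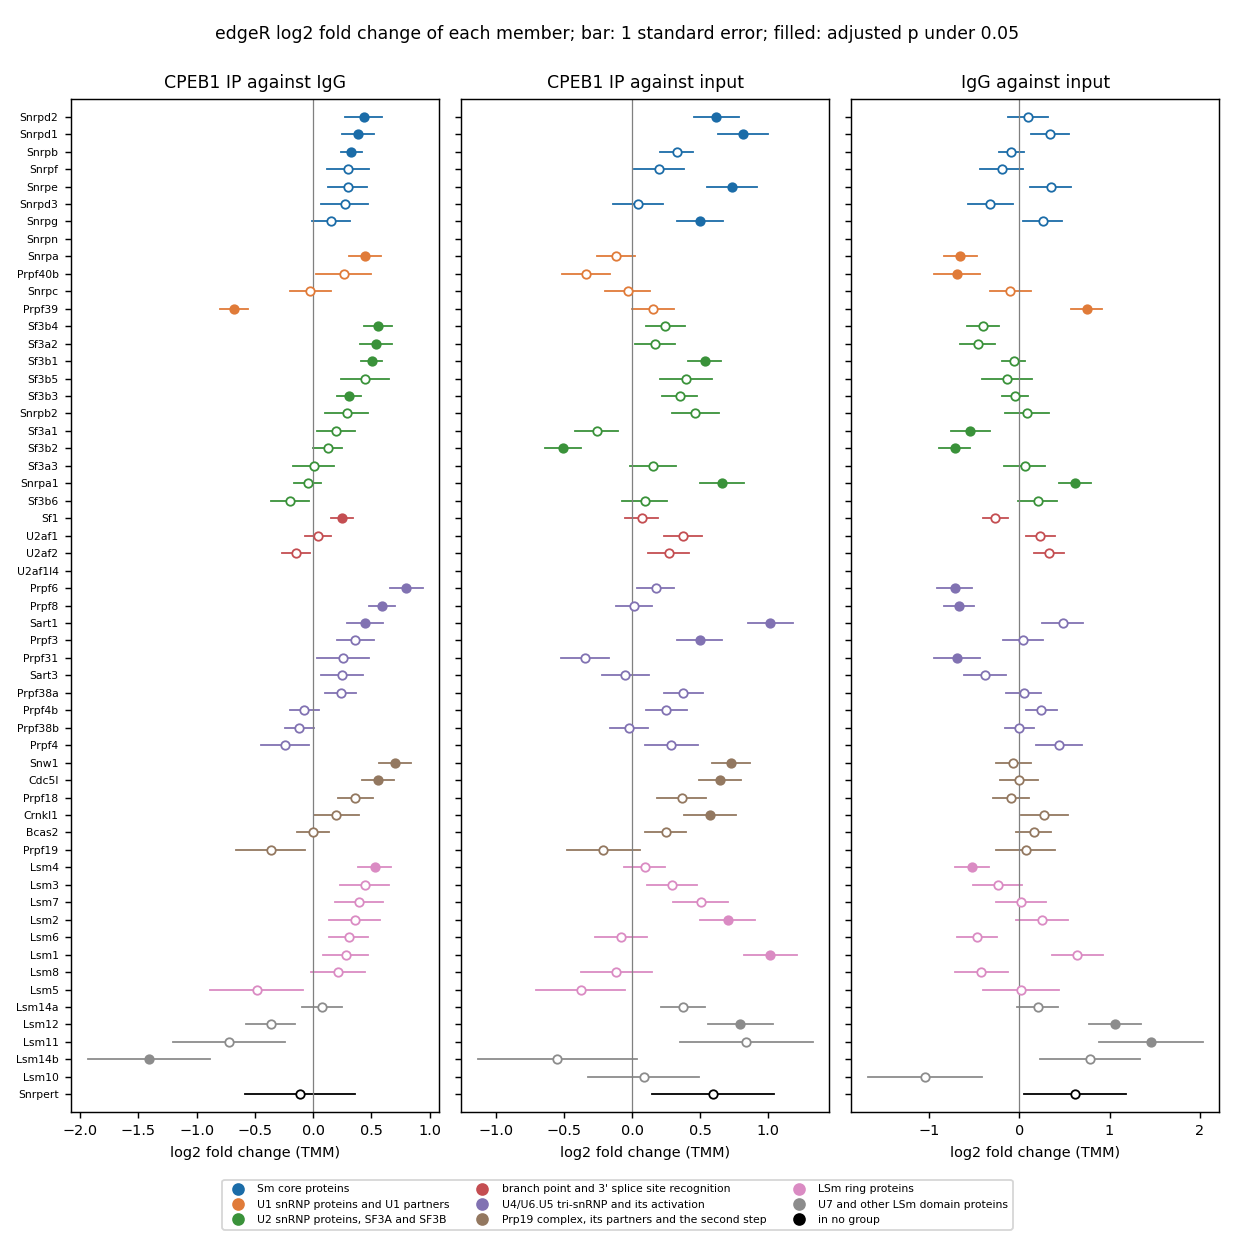
edgeR log2 fold change (x axes) of the members tested but 1 in CPEB1 IP against IgG, CPEB1 IP against input and IgG against input, sorted by group, with bars of 1 standard error and filled points for an adjusted p under 0.05. The 7 Sm genes tested lie to the right of 0 in the first and second panels, and Prpf39 lies to the left in the first and to the right in the third.

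Sm proteins form the ring on U1, U2, U4 and U5 snRNA. All 7 Sm genes tested had values above 0 against both IgG and input, where 49.2 and 48.2% of all genes tested did. Of the 7, 3 (42.9%) passed against IgG and 4 (57.1%) against input, where 14.7 and 16.3% of all genes were higher. With all 4 libraries, TMM scaling and the low-count filter, 0 passed between IgG and input by edgeR or at an unadjusted p under 0.05. By DESeq2 0 passed as well. Of all genes tested between IgG and input, edgeR called 21.4% higher and 19.4% lower. With the FPKM library total as scale all 7 were lower in IgG than input, against 55.3% of all genes. With TMM, leaving out single libraries moved Snrpe between -0.05 and 0.66 and Snrpd1 between 0.07 and 0.67 in that comparison. Snrpb (SmB) was at 521 and 510.5 CPM in input, 478 and 490.4 in IgG, and 630.4 and 642 in CPEB1 IP. Both CPEB1 IP libraries were above the other 4, by 0.33 ± 0.09 (SE) on the log2 scale over IgG (adjusted p = 0.0078) and 0.33 ± 0.12 over input (adjusted p = 0.0528). Snrpd1 (SmD1) was at 55.6 and 87.0 CPM in input, 81.4 and 98.2 in IgG, and 117 and 128 in CPEB1 IP. Its groups of CPEB1 IP and control libraries did not overlap, with differences of 0.39 ± 0.14 over IgG (adjusted p = 0.0329) and 0.82 ± 0.18 over input (adjusted p = 0.00439). Snrpd2 (SmD2) was at 51.6 and 54.2 CPM in input, 53.8 and 59.5 in IgG, and 72.1 and 86.3 in CPEB1 IP. It too was apart from all control libraries, by 0.43 ± 0.16 over IgG (adjusted p = 0.0446) and 0.62 ± 0.16 over input (adjusted p = 0.011).

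The other Sm genes differed less from IgG. Snrpe (SmE) was at 46.5 and 70.3 CPM in input, 56.0 and 91.8 in IgG, and 92.2 and 97.7 in CPEB1 IP, which was 0.73 ± 0.18 over input (adjusted p = 0.0079) and 0.30 ± 0.17 over IgG (adjusted p = 0.196). Its IgG libraries lay far apart, and the higher one came close to CPEB1 IP. Snrpg (SmG) was at 49.2 and 56.1 CPM in input, 62.8 and 63.1 in IgG, and 64.8 and 80.0 in CPEB1 IP, with 0.50 ± 0.17 over input (adjusted p = 0.0373) and 0.16 ± 0.16 over IgG (adjusted p = 0.497). The Snrpg call over input was lost in 8 of the 11 alternatives, DESeq2 among them, and its value was 0.32 without CPEB1 IP replicate 2. The value of Snrpe over input was 0.48 without input replicate 1. Snrpd3 (SmD3), at 39.6 and 48.3, 35.1 and 35.1, and 46.7 and 42.6 CPM in the same order, overlapped input. Snrpf (SmF), at 44.1 and 60.1, 44.8 and 45.9, and 63.5 and 54.6 CPM, also overlapped input, and 85.4% of its exonic bases lie opposite other genes' exons, mainly Ccdc38. Snrpn, the imprinted gene for SmN, had 2 to 17 counts per library. Leaving out single libraries moved Snrpe to -0.011 and Snrpg to -0.025 over IgG at the lowest, so the shared sign of the Sm genes did not hold in every such fit. The calls of Snrpd1 and Snrpd2 over IgG were lost with DESeq2, in one fit of all libraries, and without IgG replicate 1 or CPEB1 IP replicate 2. That of Snrpd2 was lost in 7 of the 11 alternatives. The Snrpd2 value was 0.28 without CPEB1 IP replicate 2, and its adjusted p was 0.0583 with the replicate number as a block.

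U1 proteins and their partners included calls in both directions against IgG. Snrpa encodes a U1 snRNP protein that binds a stem-loop of U1 snRNA. It was at 137 and 131 CPM in input, 78.5 and 91.8 in IgG, and 121 and 122 in CPEB1 IP. It was above IgG by 0.45 ± 0.13 (adjusted p = 0.0141) but at -0.12 ± 0.14 against input (adjusted p = 0.546), and the control precipitate itself was below input (-0.66 ± 0.18, adjusted p = 0.00389). The call over IgG was lost with DESeq2, without IgG replicate 1 and without CPEB1 IP replicate 2. Prpf39, the relative of a yeast U1 protein, went the other way. It was at 122 and 100.05 CPM in input, 171 and 201 in IgG, and 115 and 127 in CPEB1 IP. The IgG libraries were above all others: CPEB1 IP was lower than IgG by 0.68 ± 0.12 (log2 fold change -0.68, adjusted p = 0.000236), IgG was higher than input by 0.74 ± 0.17 (adjusted p = 0.000619), and CPEB1 IP and input overlapped. With the FPKM library total as scale the Prpf39 values were 0.13 and -0.13.

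Prpf40b, a relative of the yeast protein that links U1 to the branch point, was followed through the same libraries. It was at 71.9 and 58.9 CPM in input, 26.2 and 54.5 in IgG, and 47.1 and 53.6 in CPEB1 IP, with IgG below input by 0.70 ± 0.25 (log2 fold change -0.70, adjusted p = 0.0266). The 2 IgG values of Prpf40b lay further apart than those of the other groups: leaving out IgG replicate 1 gave -0.26, leaving out IgG replicate 2 gave -1.32, and the call was also lost with DESeq2 and without input replicate 1. Snrpc, another U1 snRNP protein, passed no test.

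U2 proteins were the largest group, with 4 of 11 members (36.4%) higher in CPEB1 IP than IgG, against 14.7% of all genes tested. Against input 2 (18.2%) were higher and 1 lower, where 16.3% of all genes were higher and 16.7% lower. Sf3b1, which holds the branch point helix, gave more counts than any other member: 1032 and 1109.8 CPM in input, 986 and 1067 in IgG, and 1536 and 1508 in CPEB1 IP. Both CPEB1 IP libraries were clear of the 4 controls, by 0.50 ± 0.09 over IgG (adjusted p = 0.000299) and 0.53 ± 0.12 over input (adjusted p = 0.00459). IgG and input differed by -0.06 ± 0.13 (adjusted p = 0.727). Sf3b1 alone was 16.8 to 17.5% of the members' counts in the control libraries and 20.5 and 20.0% in CPEB1 IP. The members together took 0.606 to 0.625% of all counts in the 4 control libraries and 0.713 and 0.752% in CPEB1 IP. Without Sf3b1 these shares were 0.503 to 0.517% and 0.567 and 0.602%.

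Sf3b4 encodes an SF3B subunit that contacts RNA next to the branch point. It was at 158 and 136 CPM in input, 103 and 119.7 in IgG, and 172 and 171 in CPEB1 IP, which was 0.56 ± 0.12 over IgG (adjusted p = 0.00146) and 0.25 ± 0.14 over input (adjusted p = 0.198). Sf3a2, an SF3A subunit, was at 111 and 96.0 CPM in input, 79.9 and 70.3 in IgG, and 117 and 112 in CPEB1 IP. Its CPEB1 IP libraries were above the others by a small margin over input, and the difference from IgG was 0.54 ± 0.14 (adjusted p = 0.00506). That call was lost with DESeq2. Sf3b3 was 0.31 ± 0.10 over IgG (adjusted p = 0.0222) with 396 and 437 CPM in CPEB1 IP against 344 and 299.7 in IgG. This call was lost with DESeq2, in one fit of all libraries, and without IgG replicate 2 or CPEB1 IP replicate 2.

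Among the other U2 genes, Snrpa1, Sf3b2 and Sf3a1 differed between the control precipitate and input. Snrpb2, Sf3b5, Sf3a3 and Sf3b6 passed no test, and for Snrpb2 and Sf3b5 both CPEB1 IP libraries were above the other 4. Snrpa1, for a protein of the U2 snRNP, was at 108 and 81.5 CPM in input, 148 and 144 in IgG, and 140.2 and 155 in CPEB1 IP. Both precipitates were above input, by 0.66 ± 0.16 for CPEB1 IP (adjusted p = 0.00779) and 0.62 ± 0.18 for IgG (adjusted p = 0.00624), and they overlapped each other. The IgG difference was 0.40 without input replicate 2. Sf3b2 was the mirror image, at 199.9 and 194 CPM in input, 112 and 127 in IgG, and 134 and 139 in CPEB1 IP. Both precipitates were below input, CPEB1 IP at -0.50 ± 0.13 (adjusted p = 0.0109) and IgG at -0.72 ± 0.17 (adjusted p = 0.00066) on the log2 scale. Sf3a1, at 69.1 and 82.7, 50.8 and 53.1, and 61.5 and 63.0 CPM in input, IgG and CPEB1 IP, was lower in IgG than input (-0.55 ± 0.21, adjusted p = 0.0384).

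Branch point and 3′ splice site factors gave 1 call of 3 tested against IgG, where 14.7% of all genes tested were higher. Sf1, which first binds the branch point, was 0.25 ± 0.09 over IgG (adjusted p = 0.0432), with 516 and 501 CPM for input, 415 and 430.2 for IgG, and 537 and 514 for CPEB1 IP. Its CPEB1 IP and input libraries overlapped, and its call over IgG was lost in 6 of the 11 alternatives. U2af1 and U2af2, the small and large U2AF subunits, were at 0.05 ± 0.11 and -0.15 ± 0.12 over IgG and passed no test.

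The tri-snRNP group held the highest value of all members against IgG. Prpf6 encodes the protein that bridges U5 and U4/U6. It was at 105 and 109 CPM in input, 64.3 and 66.0 in IgG, and 119 and 118 in CPEB1 IP. The CPEB1 IP libraries were above IgG by 0.80 ± 0.14 (adjusted p = 0.000217) and above input by a small margin, 0.17 ± 0.14 (adjusted p = 0.362), while IgG was below input (-0.72 ± 0.19, adjusted p = 0.00288). Prpf8, the scaffold around the catalytic centre, also had its lowest values in IgG, with 198 and 225 CPM in input, 132 and 133 in IgG, and 209 and 209 in CPEB1 IP. It was 0.60 ± 0.11 over IgG (adjusted p = 0.000391), 0.01 ± 0.13 from input, whose libraries overlapped CPEB1 IP (adjusted p = 0.949), and lower in IgG than input (-0.67 ± 0.16, adjusted p = 0.00106).

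Sart1, the tri-snRNP protein that is released on activation, differed from both controls. It was at 45.3 and 42.1 CPM in input, 56.0 and 66.0 in IgG, and 81.2 and 91.8 in CPEB1 IP. That was 1.02 ± 0.16 over input, a 2.02-fold difference (adjusted p = 0.000467), and 0.45 ± 0.16 over IgG (adjusted p = 0.0315). Its call over IgG was lost with DESeq2, in one fit of all libraries, and without IgG replicate 1 or CPEB1 IP replicate 2. Prpf31, which binds the U4 5′ stem-loop, was lower in IgG than input (-0.69 ± 0.26, adjusted p = 0.0275), at 53.4 and 49.6 CPM in input, 37.4 and 26.5 in IgG, and 39.8 and 39.8 in CPEB1 IP, and the difference was -0.46 without IgG replicate 2. Prpf3, a U4/U6 protein, was 0.50 ± 0.17 over input (adjusted p = 0.0354), a call lost in 7 of the 11 alternatives. Prpf4, Prpf4b, Prpf38a, Prpf38b and Sart3 passed no test.

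The Prp19 group included 2 mRNAs that were above both controls. Snw1, a Prp19-related protein also known as a transcriptional coregulator, was at 83.9 and 88.3 CPM in input, 74.7 and 89.6 in IgG, and 139.8 and 141 in CPEB1 IP. It was 0.70 ± 0.13 over IgG (adjusted p = 0.000447) and 0.73 ± 0.14 over input (adjusted p = 0.00151), and IgG and input overlapped. Of its exonic bases 44.2% lie opposite Slirp, and reads of the pair may not be told apart. Cdc5l, a core Prp19 complex protein, was at 61.6 and 77.1 CPM in input, 67.2 and 71.0 in IgG, and 108 and 105 in CPEB1 IP. It was 0.56 ± 0.14 over IgG (adjusted p = 0.00445) and 0.65 ± 0.16 over input (adjusted p = 0.00633). The Cdc5l call over IgG was lost with DESeq2, and that over input with the FPKM library total as scale. The calls of Snw1 and Cdc5l over input were both lost without either CPEB1 IP replicate. Crnkl1 was 0.57 ± 0.19 over input (adjusted p = 0.0312), a call lost in 7 of the 11 alternatives, DESeq2 among them, and 0.20 ± 0.19 over IgG (adjusted p = 0.471). Prpf19 itself, the ubiquitin ligase, as well as Bcas2 and the late-acting Prpf18, passed no test.

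**Figure D4:**
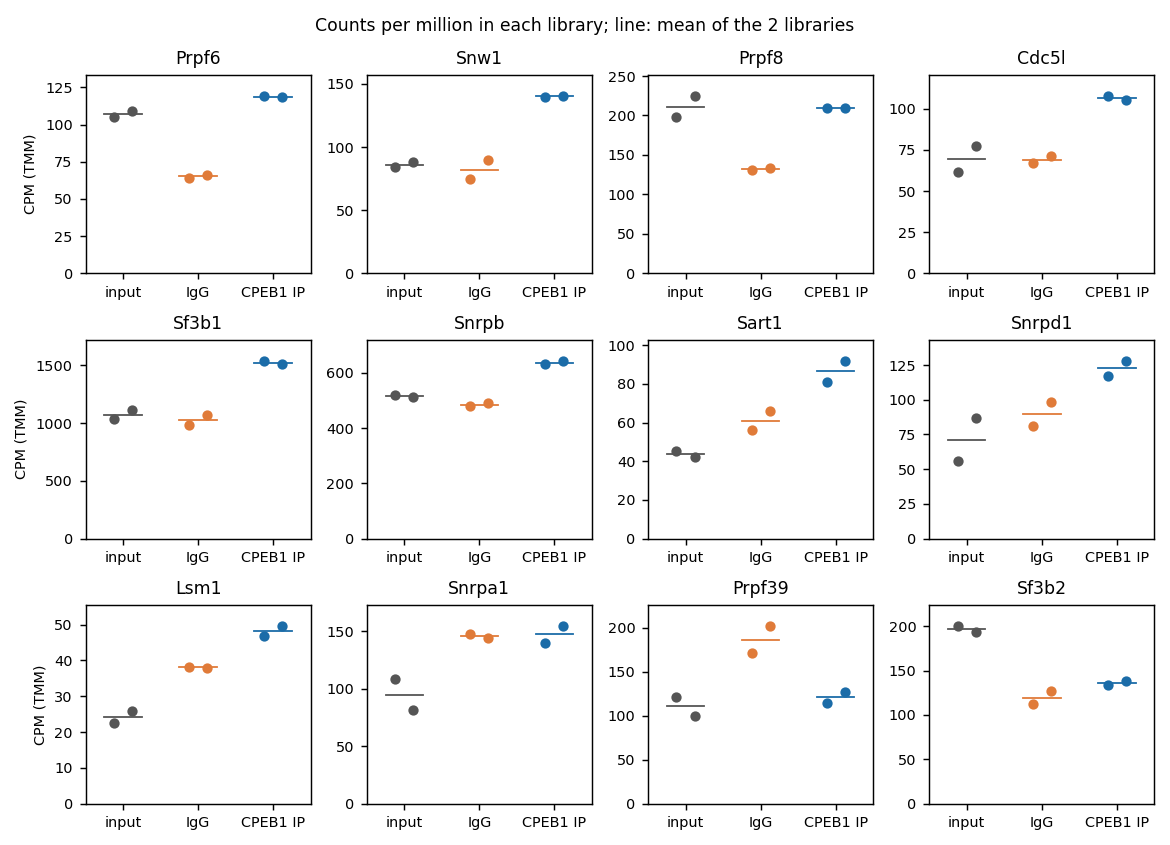
CPM with TMM scaling (y axes from 0) in each of the 6 libraries for 12 members, with a line at the mean of each pair. CPEB1 IP is above the other 4 libraries for Snw1, Cdc5l, Sf3b1, Snrpb, Sart1, Snrpd1, Lsm1 and, by a small margin, Prpf6. Prpf39 is highest in IgG, and Sf3b2 is highest in input.

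LSm proteins 2 to 8 form the ring on U6 snRNA, and Lsm1 replaces Lsm8 in the cytoplasmic ring that acts in mRNA decay. Of 8 ring genes, only Lsm4 (12.5%) was higher in CPEB1 IP than IgG, against 14.7% of all genes tested. Lsm4 was 0.53 ± 0.14 over IgG (adjusted p = 0.00583), with 123 and 104 CPM in input, 74.7 and 83.2 in IgG, and 111 and 125 in CPEB1 IP. It overlapped input, and IgG was lower than input (-0.53 ± 0.19, adjusted p = 0.0251). The call over IgG was lost without CPEB1 IP replicate 2. Lsm1 was at 22.6 and 26.0 CPM in input, 38.1 and 38.0 in IgG, and 46.7 and 49.5 in CPEB1 IP. This was 1.01 ± 0.20 over input (adjusted p = 0.00153) and 0.28 ± 0.19 over IgG (adjusted p = 0.286). Lsm2, at 24.8 and 27.6, 35.1 and 27.2, and 45.1 and 39.2 CPM in the same order, was 0.70 ± 0.20 over input (adjusted p = 0.0162) and 0.36 ± 0.22 over IgG (adjusted p = 0.229). Lsm8, the nuclear counterpart of Lsm1, was at -0.12 ± 0.26 against input (adjusted p = 0.769).

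With TMM scaling and the low-count filter, the LSm domain proteins outside these rings had 0 members higher in CPEB1 IP than IgG by edgeR. Over all genes tested 14.7% were higher. The group's count was also 0 by DESeq2 and at an unadjusted p under 0.05, and 3 of the 4 tested had values below 0. With the FPKM library total as scale 1 of the 4 was higher, against 58.97% of all genes tested. Lsm12 was at 16.6 and 24.5 CPM in input, 39.6 and 45.9 in IgG, and 39.3 and 31.5 in CPEB1 IP. It was above input in IgG (1.06 ± 0.29, adjusted p = 0.00309) and in CPEB1 IP (0.80 ± 0.24, adjusted p = 0.0215). The call of CPEB1 IP over input was lost in 6 of the 11 alternatives, DESeq2 among them. Lsm14b, a relative of an mRNA storage protein, was lower in CPEB1 IP than IgG (-1.41 ± 0.52, adjusted p = 0.0423) on 3 to 20 counts per library, and that call was lost in 7 of the 11 alternatives. Its value was -2.64 without CPEB1 IP replicate 2. Lsm11 was higher in IgG than input (1.46 ± 0.58, adjusted p = 0.0399) on 7 to 21 counts per library, and the value was 0.92 without IgG replicate 2.

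Both CPEB1 IP libraries were above the other 4 for 23 of the 55 members tested (41.8%), against 17.1% of 11158 genes, and below the other 4 for 0 members against 9.9% of genes. By group these were 6 of 11 U2 genes, 5 of 7 Sm genes, 4 of 8 LSm ring genes, 4 of 10 tri-snRNP genes and 3 of 6 Prp19 genes, with none among the 3 branch point and 4 other LSm domain genes tested. Expression level moved with these values: over all genes tested, the log2 fold change of CPEB1 IP against IgG had a Spearman rho of 0.634 with log2 input FPKM, and over the 55 members it was 0.385. Against input the same values were 0.004 over all genes tested and -0.017 over 56 members. These correlations are across genes of the same libraries, which are not independent replicates, and the part of expression level in the members' shift was not tested.

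A pair of criteria after the study's methods was also applied: CPEB1 IP divided by IgG had to exceed 2 on the FPKM scale in each experiment, and the adjusted p had to be under 0.05. Here same-numbered libraries were taken as 1 experiment, 1 FPKM was added to each value and the adjusted p came from edgeR. It was met by 14 of 55 members (25.5%), against 12.1% of all genes tested. The ratios were 2.74 and 2.83 for Prpf6, 2.66 and 2.44 for Snw1, 2.61 and 2.41 for Sf3b4 and 2.47 and 2.40 for Sf3b1. The library totals in these ratios include fragments off the genes, and the median log2 ratio of all genes tested was 0.54 and 0.61 in the 2 experiments, and that of the members 0.94 and 0.91. With FPKM recomputed on TMM library sizes, 0 members passed. With DESeq2 6 passed, and with a pseudocount of 5 FPKM 5 passed. The share of all genes that met these variants was not counted. A change among the members cannot be told from a criterion that became stricter for every gene. Lsm3, Lsm7 and Snrpf passed by ratio only, and Sf3b3 by the count test only.

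The comparison with IgG was also set beside the CPEs of the members. Of the 15 members higher in CPEB1 IP, 10 had a CPE in a 3′ UTR (66.7%), and of the 39 others with a 3′ UTR that were tested, 28 had one (71.8%). The higher members without a CPE in any annotated 3′ UTR were Snrpb, Snrpa, Lsm4, Sf3a2 and Cdc5l. The longest 3′ UTR had a median of 360 bases in the 15 and 695 in the 39. Over 54 members the log2 fold change against IgG had a Spearman rho of -0.322 with 3′ UTR length, compared with -0.178 over 10881 genes.

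**Figure D5:**
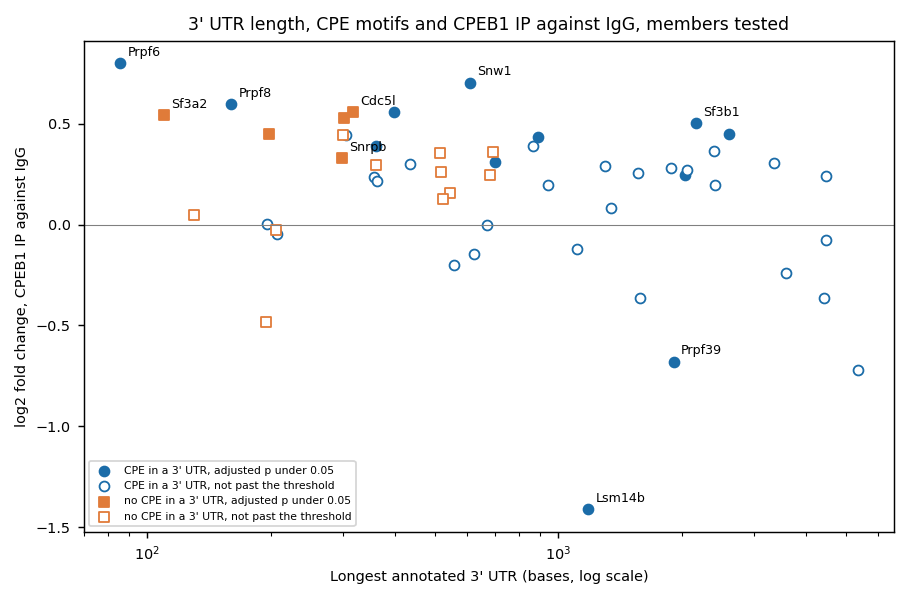
Longest annotated 3′ UTR in bases (x axis, log scale) and log2 fold change of CPEB1 IP against IgG (y axis) of the 54 members tested that have a 3′ UTR. Blue circles have a CPE and orange squares have none, and filled symbols passed the test. Prpf6, at 86 bases, has the shortest 3′ UTR and the highest value, and Lsm14b and Prpf39 are the only filled symbols below 0.

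The other spliceosome genes, in 3 lists of 57 genes that the symbol pattern left out, were counted in the same way. Against IgG, 19 of 54 tested (35.2%) were higher in CPEB1 IP and 3 (5.56%) lower, with a median log2 fold change of 0.26. Over all genes tested 14.7% were higher and 18.7% lower. Against input 19 of 55 (34.5%) were higher and 4 (7.27%) lower, with a median of 0.32, where 16.3 and 16.7% of all genes were. Between IgG and input 13 of 56 (23.2%) were higher in IgG and 8 (14.3%) lower. These shares were near the 21.4 and 19.4% of all genes, and the members had 4 and 8 of 56. Among genes past the threshold, the largest differences from IgG in each direction were in Cd2bp2, a U5-associated factor, at 1.28 ± 0.23 (adjusted p = 0.000255), Ddx20, a helicase of the SMN complex, at 0.78 ± 0.24 (adjusted p = 0.0141), Snrnp70, the U1 70K protein, at -0.64 ± 0.11 (adjusted p = 0.000135), and Aqr, an intron-binding helicase, at -0.60 ± 0.18 (adjusted p = 0.0135). In the list of SMN and methylosome factors, which place Sm rings on snRNA, 6 of 10 were higher in CPEB1 IP than input, against 16.3% of all genes tested. There 5 of 11 were higher in IgG than input, against 21.4%. Gemin7 of that list was at 46.8 and 51.7 CPM in input, 91.9 and 108 in IgG, and 127 and 123 in CPEB1 IP. It was 1.37 ± 0.15 over input in CPEB1 IP (adjusted p = 2.76e-05) and 1.02 ± 0.20 in IgG (adjusted p = 9.18e-05). Among genes past the threshold against input, Txnl4a (1.24 ± 0.15), Gpkow (-0.95 ± 0.15) and Cwc27 (-0.80 ± 0.24) were the other extremes of CPEB1 IP, and Snrnp48 (0.95 ± 0.20), Gpkow (-1.52 ± 0.20) and Cwc27 (-1.51 ± 0.39) those of IgG.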

How the data were processed

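Per the labels and the study's methods, RNA from fiSC lysate before and after precipitation with anti-IgG or anti-CPEB1 on Protein A beads was made into SMART-seq2 libraries. The authors mapped reads to mm10 with HISAT2 and counted them with featureCounts. The annotation release, strand setting and treatment of multiply mapped reads are not given in the sources used here. The deposited files hold raw read counts per gene and FPKM that the authors calculated from them. Dividing counts by FPKM and length gave the library total behind the FPKM, which exceeded the counts on genes.

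Genes were fitted in edgeR 4.0.16 (R 4.3.3; filterByExpr, TMM, quasi-likelihood test, two-sided, Benjamini-Hochberg adjustment over all genes tested, threshold 0.05) on the counts of the 2 groups compared, 2 libraries each, which leaves 2 residual degrees of freedom. The standard error (SE) is the log2 fold change divided by the square root of F. CPM in single libraries used TMM factors of all 6 libraries. DESeq2 1.42.0, other scalings, no filter, one fit of all libraries, a replicate block and leaving out each library were the alternatives. Sources give 2 independent experiments, and p-values measure the spread between these libraries. 3′ UTRs were read from GENCODE M21, matched by symbol and chromosome (54509 genes matched, 867 did not). Of the members, 20 overlap exons of another gene.

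Members and lists were chosen with earlier results of these data known. Values in every library are given for all Sm genes and, per comparison and direction, for up to 10 members past the threshold with the largest differences and a mean FPKM over 1. From the other lists the 2 largest per direction are named. Other members named were chosen after their values were seen. One result for a single gene is not reported here, and the gene is not drawn by name in the figures.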

Additional observations from a re-analysis of the deposited data

How the results depend on the processing

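The number of members higher in CPEB1 IP than IgG was 15 and became 6 with DESeq2, 48 with the FPKM library total as library size and 34 with no filter on low counts. The number lower was 2 and became 1, 0 and 0 under those settings and 1 with all 6 libraries in one fit. With single libraries left out the members' median was 0.22 to 0.27, against -0.02 to -0.01 over all genes. Of the 17 calls, 6 held under every alternative. Against input, 15 higher and 1 lower became 6 higher with the FPKM library total, where 10.1% of all genes were higher. These calls rested on both CPEB1 IP libraries, as given above. With single libraries left out the members' median was 0.25 to 0.33, against -0.036 to -0.004 over all genes. Between IgG and input, 4 higher and 8 lower became 4 lower with DESeq2, and 0 higher and 44 lower with the FPKM library total. The number higher was 0 with no filter and 7 with one fit of all libraries. The calls of this comparison rested on both IgG libraries, as given above. With single libraries left out the members' median was -0.05 to 0.11, against 0.02 to 0.04 over all genes. Over all genes, 24.2% were higher in IgG than input with one fit of all libraries, and 10.3% with no filter. A fit with 1 library in a group has 1 residual degree of freedom and assumes that the lone library varies like the other group. In such fits the members' median stood 0.22 to 0.29 above that of all genes against IgG and 0.29 to 0.34 above it against input. Between IgG and input the difference of these medians was -0.08 to 0.08.

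The FPKM library total shifted the median of all genes by 0.80, -0.19 and -0.85 in the 3 comparisons. It reversed Prpf39 against IgG (0.13), and between IgG and input Snrpe (-0.55), Snrpg (-0.63), Snrpd2 (-0.78), Snrpa1 (-0.25), Prpf39 (-0.13) and Snrpd1 (-0.56). Members that met the ratio and test criteria numbered 14 and became 6 with DESeq2, 5 when 5 FPKM was added to each value, and 0 when FPKM was rescaled by TMM. The share of all genes under these variants was not counted. The share of members with a CPE was 66.7% and 61.4% with TTTTAT alone. For other single-gene values under the alternatives, 480 kept their side of the threshold, 146 lost the call and 16 gained one. The 480 include changes of sign in values that did not pass. Examples over IgG are Snrpe (-0.011 without IgG replicate 1) and Snrpg (-0.025 without CPEB1 IP replicate 2). The cause of these changes was not tested.

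With a replicate block the counts were 14 higher and 2 lower against IgG, 14 and 1 against input, and 3 and 10 between IgG and input. Over all genes the shares higher and lower in those fits were 14.3 and 18.4%, 16.2 and 17.2%, and 21.4 and 20.7%. The 10 members lower in IgG were 17.9% of 56, near the share of all genes. Deviations of same-numbered libraries correlated at -0.0105, -0.0171 and 0.0323, so the main tests did not use the numbers as pairs. The FPKM ratios did pair same-numbered libraries, and with crossed pairs 12 members met the criteria in place of 14. How many of all genes met them with crossed pairs was not counted. The IgG libraries had the fewest counts, a median of 74.5 and 85.5 per member.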
